A study of Rattus norvegicus with 25 samples.

Results

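The expression of 7 genes for gut hormones and enteric neuropeptides was followed through rat intestine after Roux-en-Y gastric bypass (RYGB) or sham surgery. The genes are Gcg (ENSRNOG00000005498), Nts (ENSRNOG00000004179), Cck (ENSRNOG00000019321), Sst (ENSRNOG00000001837), Chgb (ENSRNOG00000021269), Vip (ENSRNOG00000018808) and Tac1 (ENSRNOG00000007374). They were taken by ID from a table of 32883 rat gene IDs, by a rule that names them and uses no measured value. Total RNA was sequenced in 25 libraries, from 2 cohorts. In the first cohort, whose strain and age the labels do not give, RYGB rats gave 3 samples of the alimentary limb (RYGB_AL) and 3 of the common limb (RYGB_CL), and sham-operated rats gave 3 of the ileum (Sham_IL) and 3 of the jejunum (Sham_JEJU). In the second, of Otsuka Long-Evans Tokushima Fatty (OLETF) rats, there were 4 samples of intestine labelled glucotonic after RYGB (Glucotonic_OLE), 4 labelled non-glucotonic after RYGB (Nonglucotonic_OLE) and 3 of sham-operated distal intestine (Sham_OLE). OLETF rats become obese and diabetic and lack the CCK-A receptor, which all OLE groups share. In RYGB the stomach pouch is joined to a loop of small intestine, the alimentary limb, which carries food without bile and pancreatic juice until it meets the biliopancreatic limb and becomes the common limb.

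Gut hormones are made by scattered enteroendocrine cells of the epithelium, which sense nutrients and release peptides from granules. Which peptides these cells make changes along the intestine: CCK-producing cells are most frequent proximally, and cells making proglucagon peptides and neurotensin distally. Gcg encodes proglucagon, the precursor of GLP-1 and GLP-2 in the gut. Nts encodes neurotensin, which slows motility and is released by fat. Cck encodes cholecystokinin, which drives pancreatic secretion. Sst encodes somatostatin, an inhibitor of the release of other gut hormones, made by enteroendocrine D cells and some neurons. Chgb encodes chromogranin B, a protein of the secretory granule itself. Vip and Tac1 are mostly neuronal in the gut wall: Vip encodes vasoactive intestinal peptide of relaxing and secretomotor neurons, and Tac1 encodes substance P and neurokinin A of contracting neurons. GLP-1 in blood is known to rise after meals in people who have had RYGB.

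Promoter sequences are printed for Gcg and Nts, the members most often above every sham sample in the OLE sections after RYGB, and for Sst, which differed between the sham segments. They are RefSeq sequences on build GRCr8, from 250 bases before to 30 bases after the annotated start, 5′ to 3′ on the strand of the gene. The windows are chr3:67531504-67531783 on the minus strand for Gcg, chr7:39460859-39461138 on the minus strand for Nts, and chr11:90461296-90461575 on the plus strand for Sst. Capitals mark matches on either strand to TGACGTCA (the cAMP response element), TGAGTCA (the AP-1 element) and TATAAA (the TATA element).
Gcg: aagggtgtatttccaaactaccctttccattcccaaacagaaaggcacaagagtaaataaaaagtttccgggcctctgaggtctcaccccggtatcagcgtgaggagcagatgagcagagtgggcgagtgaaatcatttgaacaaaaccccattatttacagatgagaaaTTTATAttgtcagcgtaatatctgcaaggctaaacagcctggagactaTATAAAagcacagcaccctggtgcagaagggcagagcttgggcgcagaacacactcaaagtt
Nts: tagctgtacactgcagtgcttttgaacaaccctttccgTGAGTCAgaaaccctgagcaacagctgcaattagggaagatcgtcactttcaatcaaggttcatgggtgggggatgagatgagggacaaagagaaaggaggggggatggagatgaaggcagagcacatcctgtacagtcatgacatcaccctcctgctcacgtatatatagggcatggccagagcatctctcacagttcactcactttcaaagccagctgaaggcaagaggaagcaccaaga
Sst: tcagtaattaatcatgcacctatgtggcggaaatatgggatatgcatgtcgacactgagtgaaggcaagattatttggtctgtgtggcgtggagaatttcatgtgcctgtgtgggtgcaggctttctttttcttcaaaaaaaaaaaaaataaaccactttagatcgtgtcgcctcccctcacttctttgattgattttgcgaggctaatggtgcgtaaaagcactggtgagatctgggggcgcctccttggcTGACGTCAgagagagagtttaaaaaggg
The Gcg window held 2 TATA elements, with their first bases 80 and 32 bases before the annotated start, the nearer one on the gene's own strand. The Nts window held 1 AP-1 element, 212 bases before the start. The Sst window held 1 cAMP response element, whose first base lay 3 bases after the annotated start. Of 33469 promoter windows of this length, 13.7% held TATAAA, 4.42% held TGAGTCA and 1.78% held TGACGTCA. These motifs do not overlap in the printed windows. Of the 6 members found in the promoter table, Vip also held 3 TATA elements, and Chgb and Tac1 held none of the 3 motifs. A match describes the letters only.

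First-cohort libraries held 23701208 to 49319824 counts, and OLE libraries held 18095668 to 25639503. In the OLE libraries 1 ID held 35.5 to 52.6% of all counts, against at most 1.47% in first-cohort libraries. The cohorts were scaled and fitted apart, so levels are set side by side within a cohort only. Levels are CPM, counts scaled to a common library size, not per gene length. They compare samples for 1 gene, not genes with each other. All 7 members passed the low-count filter in both cohorts, so none was left out. Some samples stood apart for these genes: Sham_JEJU 8-15 had the highest Cck and the lowest Gcg and Nts of the first cohort, and RYGB 2-3 had the highest Tac1 and Chgb of its group in both limbs. In the OLE cohort, Sham_OLE 4 had the highest Cck, and both sections of number 19 had the lowest Gcg of their groups. Several results that rest on these samples, though not all, are given with and without them.

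**Figure D1:**
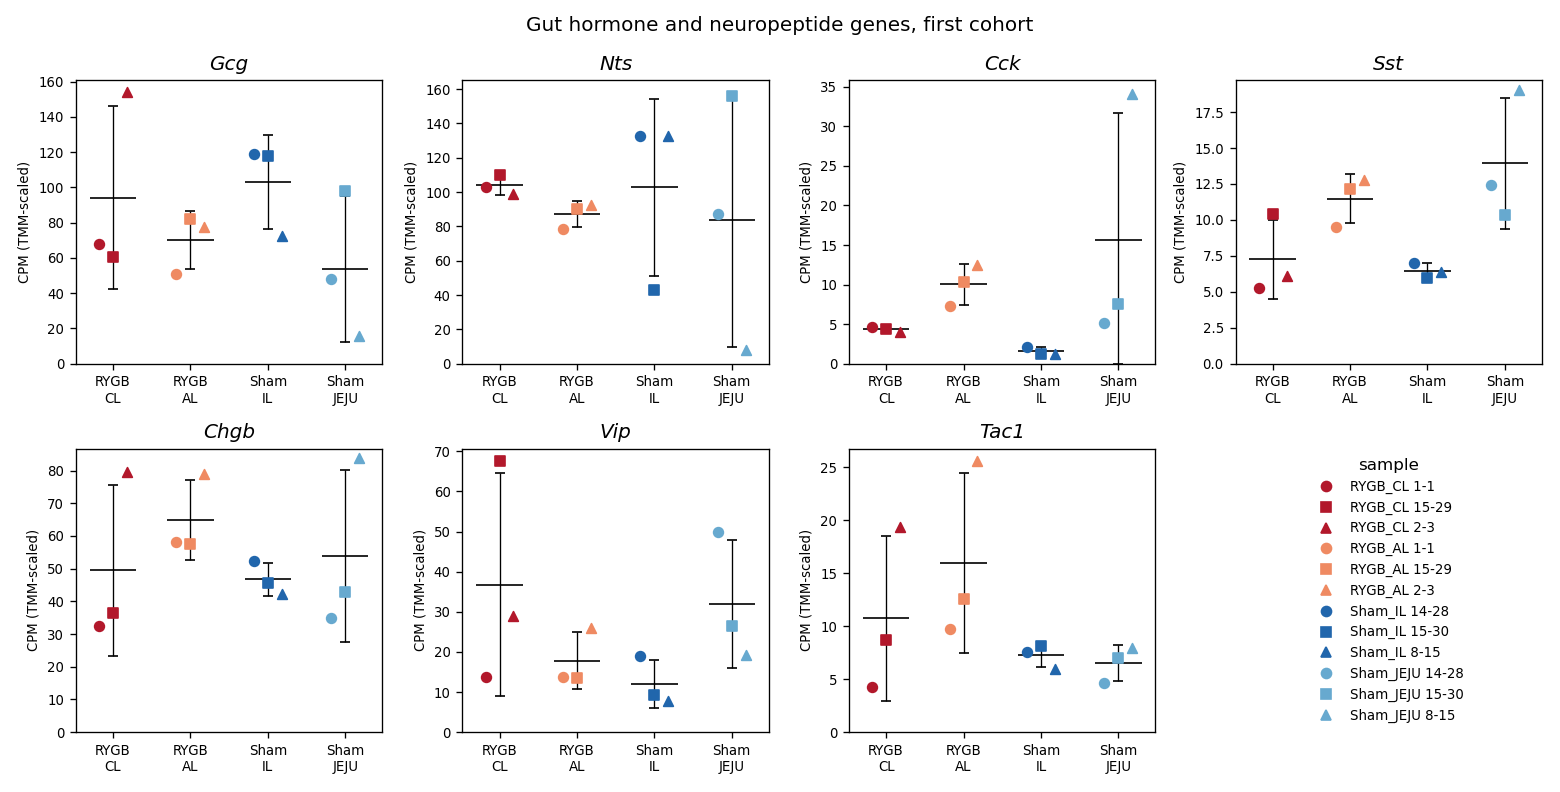
Level of each gene in CPM (vertical axis, linear, from 0) in every sample of the first cohort, with 1 panel a gene. Points are samples, the horizontal line is the mean and the bar is the SD over 3 samples, with its lower end stopped at 0. Cck is low in all Sham_IL samples, and its highest point, 34.2 CPM, is Sham_JEJU 8-15.

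Ileum was first compared with jejunum in sham rats, where no bypass had been made. Cck and Sst fell in ileum: Cck was 10.1-fold lower and Sst 2.16-fold lower. Both are the members called of 7, while 6.47% of the 16146 IDs tested were called lower and 9.22% were called in either direction. In bulk tissue, fewer cells of a type and less RNA per cell cannot be told apart. The median log2 change was -0.21 over the members and 0.03 over all IDs tested.

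Cck had 1.26, 2.12 and 1.23 CPM in Sham_IL, against 34.2, 5.20 and 7.48 CPM in Sham_JEJU (order 8-15, 14-28, 15-30 in both). The groups did not overlap, and Sham_JEJU 8-15 was far above the other jejunum samples. Its log2 change was -3.34 (SE 0.62, adjusted p = 0.0109 by edgeR's quasi-likelihood test with Benjamini-Hochberg adjustment over all IDs), and -2.04 (adjusted p = 0.0178) without Sham_JEJU 8-15. The counts behind the ileum values were 34 to 63 reads a library.

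Sst had 6.39, 7.03 and 5.93 CPM in Sham_IL, against 19.01, 12.5 and 10.3 CPM in Sham_JEJU. All ileum samples lay below all jejunum samples. Its log2 change was -1.11 (SE 0.29, adjusted p = 0.0362, edgeR). Without Sham_JEJU 8-15 it was -0.82 (adjusted p = 0.13, edgeR) and no longer passed. Leaving out any Sham_IL sample also ended the Sst call, with edgeR adjusted p of 0.124 (8-15), 0.0663 (14-28) and 0.133 (15-30). For Cck the call was lost without Sham_IL 8-15 (edgeR adjusted p = 0.0596) or 15-30 (0.0619), while its log2 change remained below -2 with each sample left out. The sham segments carry the same title numbers, which were not taken to pair them. With the number as a replicate block, neither Cck nor Sst passed by edgeR and only Vip did, beside 4.51% of IDs.

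Vip, the neuronal peptide, was the third member without overlap, at 7.88, 18.9 and 9.25 CPM in Sham_IL, against 19.4, 49.9 and 26.5 CPM in Sham_JEJU. All 3 members were lower in ileum without overlap, as were 17.8% of the IDs tested. The log2 change of Vip was -1.41 (SE 0.57), with an adjusted p of 0.137 by edgeR and 0.0482 by DESeq2, which called 3 members and 16.3% of IDs. The distal hormones did not pass this test. Gcg had 72.1, 119 and 118 CPM in Sham_IL, against 15.8, 48.0 and 97.8 CPM in Sham_JEJU, and the ranges overlapped. Nts had 133, 133 and 43.1 CPM in Sham_IL, against 8.23, 87.1 and 156 CPM in Sham_JEJU, the widest spread of any member within a group. Chgb averaged 46.7 ± 5.15 CPM in Sham_IL and 53.9 ± 26.2 CPM in Sham_JEJU (SD, n = 3 each). Tac1 averaged 7.24 ± 1.12 CPM in Sham_IL and 6.53 ± 1.73 CPM in Sham_JEJU (SD, n = 3 each).

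Between the limbs of RYGB rats, common against alimentary, 0 of 7 members passed, while 9.32% of IDs were called by edgeR. At an unadjusted p under 0.05 there was 1 member, Sst, against 29.2% of IDs. DESeq2 called 0 members and 17.2% of IDs. Cck had 4.597, 4.05 and 4.44 CPM in RYGB_CL, against 7.29, 12.5 and 10.4 CPM in RYGB_AL (order 1-1, 2-3, 15-29 in both). The limbs did not overlap, as for 16.9% of IDs that were lower without overlap. The log2 change of Cck was -1.20 (SE 0.57, edgeR adjusted p = 0.182). Sst had 5.29, 6.09 and 10.4 CPM in RYGB_CL, against 9.54, 12.8 and 12.1 CPM in RYGB_AL, with a log2 change of -0.66 (SE 0.29, edgeR adjusted p = 0.148). Without RYGB_CL 15-29, the highest common limb sample for Sst, its log2 change was -1.02 and passed by edgeR (adjusted p = 0.0347), beside 13.4% of IDs. For Nts the common limb lay above the alimentary limb in every sample, at 103, 98.8 and 110 CPM in RYGB_CL, against 78.4, 92.6 and 90.4 CPM in RYGB_AL, with a log2 change of 0.25. Higher without overlap described 15.2% of IDs.

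The first surgical comparison set the alimentary limb against sham jejunum. None of the 7 members passed (0 of 7, with 7.66% of IDs called by edgeR). At an unadjusted p under 0.05 there was 1 member, Tac1, against 22.2% of IDs, and DESeq2 called 0 members and 12.6% of IDs. The median log2 change was 0.06 over the members and -0.01 over all IDs.

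Tac1 came nearest, at 9.72, 25.6 and 12.6 CPM in RYGB_AL, against 7.97, 4.61 and 7.01 CPM in Sham_JEJU. All RYGB samples lay above all sham samples, as did 13.4% of IDs, and number 2-3 was highest. Its log2 change was 1.29 (SE 0.49, 95% interval 0.21 to 2.37, edgeR adjusted p = 0.145), and 0.74 (adjusted p = 0.505) without RYGB_AL 2-3.

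The hormones overlapped between the groups. Cck averaged 10.04 ± 2.60 CPM in RYGB_AL and 15.6 ± 16.1 CPM in Sham_JEJU (SD, n = 3 each), with a log2 change of -0.64. Without Sham_JEJU 8-15 the sign turned, to a log2 change of 0.66. Gcg had 51.0, 77.3 and 81.8 CPM in RYGB_AL, all within the sham range, with a log2 change of 0.38 (95% interval -0.82 to 1.57). Nts averaged 87.2 ± 7.63 CPM in RYGB_AL and 83.8 ± 74.0 CPM in Sham_JEJU (SD, n = 3 each), so its mean was nearly level. Its spread was far narrower in RYGB_AL, as Sham_JEJU ran from 8.23 CPM in 8-15 to 156 CPM in 15-30. In the OLE cohort the SD of Nts went the other way. It was 20.9 CPM in Glucotonic_OLE and 26.5 CPM in Nonglucotonic_OLE, against 1.15 CPM in Sham_OLE. The differences in spread were not tested. The signs of Gcg, Nts and Sst also turned without Sham_JEJU 8-15, to log2 changes of -0.06, -0.48 and 0.01. Sst had a log2 change of -0.28, Chgb of 0.27 and Vip of -0.84, and none of them passed by edgeR. Vip had 13.8, 26.0 and 13.6 CPM in RYGB_AL, so that all but 2-3 lay below the lowest jejunum sample at 19.4 CPM.

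The second surgical comparison set the common limb against sham ileum. Here 0 of 7 members passed, and 0 of the 16146 IDs did by edgeR (0% called, with 1268 IDs at an unadjusted p under 0.05). DESeq2 called 93 IDs (0.576%) and 0 members. Of the members, 2 had an unadjusted p under 0.05, Cck and Vip, against 7.85% of IDs. The median log2 change was 0.17 over the members and 0.05 over all IDs.

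Cck had 4.597, 4.05 and 4.44 CPM in RYGB_CL, against 1.26, 2.12 and 1.23 CPM in Sham_IL. Every common limb sample was above every ileum sample, as for 9.34% of IDs. For Cck the log2 change was 1.50 (SE 0.59, 95% interval 0.21 to 2.79, edgeR adjusted p = 0.585). Over the alternatives run, it lay between 1.36 and 1.80, and no adjusted p was below 0.257. The Cck level of the common limb lay between sham ileum and the alimentary limb, and overlapped neither. A measure of the intestinal segment moved with it: the mean log2 CPM of 444 IDs higher in sham ileum minus that of 1043 IDs higher in sham jejunum, with the members left out. It was -2.37, -1.84 and -2.95 in RYGB_CL and -3.66, -3.93 and -3.60 in RYGB_AL, against -1.28, -1.50 and -1.06 in Sham_IL and -4.36, -3.79 and -4.27 in Sham_JEJU. The common limb lay between ileum and the alimentary limb without overlap here too. The sham groups chose these IDs, so their own values are set by that choice. It pushes the sham values apart, so the gap between RYGB_CL and Sham_IL in this measure is partly built in. The part of the segment in the Cck values was not tested.

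Vip had 13.8, 28.9 and 67.6 CPM in RYGB_CL, against 7.88, 18.9 and 9.25 CPM in Sham_IL. The groups overlapped, and RYGB_CL 15-29 was above every other first-cohort sample. The log2 change of Vip was 1.61 (SE 0.58, edgeR adjusted p = 0.544), and 0.83 without RYGB_CL 15-29. Gcg had 67.9, 154 and 60.7 CPM in RYGB_CL, against 72.1, 119 and 118 CPM in Sham_IL, so only 2-3 lay above the ileum samples. Nts averaged 104 ± 5.67 CPM in RYGB_CL and 103 ± 51.7 CPM in Sham_IL (SD, n = 3 each). Chgb and Tac1 were each highest in 2-3 as well, at 79.6 and 19.3 CPM, against highest values of 52.3 and 8.12 CPM in Sham_IL. Without RYGB_CL 2-3 the log2 change of Chgb was -0.44, against 0.08 with all samples, and that of Tac1 was -0.17, against 0.57.

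The surgical differences of the 2 limbs were then set against each other (alimentary minus common limb). Again 0 of 7 members passed, with 0.607% of IDs called by edgeR. At an unadjusted p under 0.05 there were 2, Vip and Cck, against 12.5% of IDs, and DESeq2 called 1, Vip, and 3.52% of IDs. Vip had the largest difference, a log2 value of -2.45 (SE 0.80, unadjusted p = 0.0108 and adjusted p = 0.22 by edgeR's quasi-likelihood test, adjusted p = 0.034 by DESeq2). Its mean was below sham in the alimentary limb and above sham in the common limb. Without RYGB_CL 15-29 it was -1.67. Cck followed with -2.14 (SE 0.81, edgeR adjusted p = 0.292), and was -0.84 without Sham_JEJU 8-15.

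Over the 4 first-cohort groups, the hormones had opposite orders of mean level. Cck averaged 4.36 ± 0.28 CPM in RYGB_CL and 10.04 ± 2.60 CPM in RYGB_AL, against 1.54 ± 0.50 CPM in Sham_IL and 15.6 ± 16.1 CPM in Sham_JEJU (SD, n = 3 each). From high to low its order was Sham_JEJU, RYGB_AL, RYGB_CL and Sham_IL, and Sst had the same order. Sst averaged 7.25 ± 2.74 CPM in RYGB_CL and 11.5 ± 1.71 CPM in RYGB_AL, against 6.45 ± 0.55 CPM in Sham_IL and 13.9 ± 4.53 CPM in Sham_JEJU (SD, n = 3 each). Gcg had the reverse order, at 94.1 ± 51.8 CPM in RYGB_CL and 70.02 ± 16.6 CPM in RYGB_AL, against 103 ± 26.6 CPM in Sham_IL and 53.9 ± 41.3 CPM in Sham_JEJU (SD, n = 3 each). No neighbours in these 3 orders passed by edgeR, although RYGB_CL overlapped neither of its neighbours for Cck. The ends of the order passed for Cck and Sst but not for Gcg (adjusted p = 0.285, edgeR). The upper or lower end of each order rests on Sham_JEJU 8-15: the other jejunum samples had 5.20 and 7.48 CPM of Cck, and without it the log2 changes of RYGB_AL against Sham_JEJU turned sign for Cck (0.66), Sst (0.01) and Gcg (-0.06). Vip was ordered RYGB_CL, Sham_JEJU, RYGB_AL and Sham_IL. There the first place of RYGB_CL rests on 15-29 at 67.6 CPM. The other common limb samples had 13.8 and 28.9 CPM, below the Sham_JEJU mean of 31.9 CPM. The means of Tac1 were highest in the limbs after RYGB, at 10.7 ± 7.76 CPM in RYGB_CL and 15.98 ± 8.48 CPM in RYGB_AL (SD, n = 3 each). For Tac1 the place of RYGB_CL rests on 2-3 at 19.3 CPM, as the other common limb samples had 4.22 and 8.66 CPM. Without 2-3 the log2 change of Tac1 against Sham_IL was -0.17. The order of Vip and Tac1 rests on means whose groups overlap in part.

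**Figure D2:**
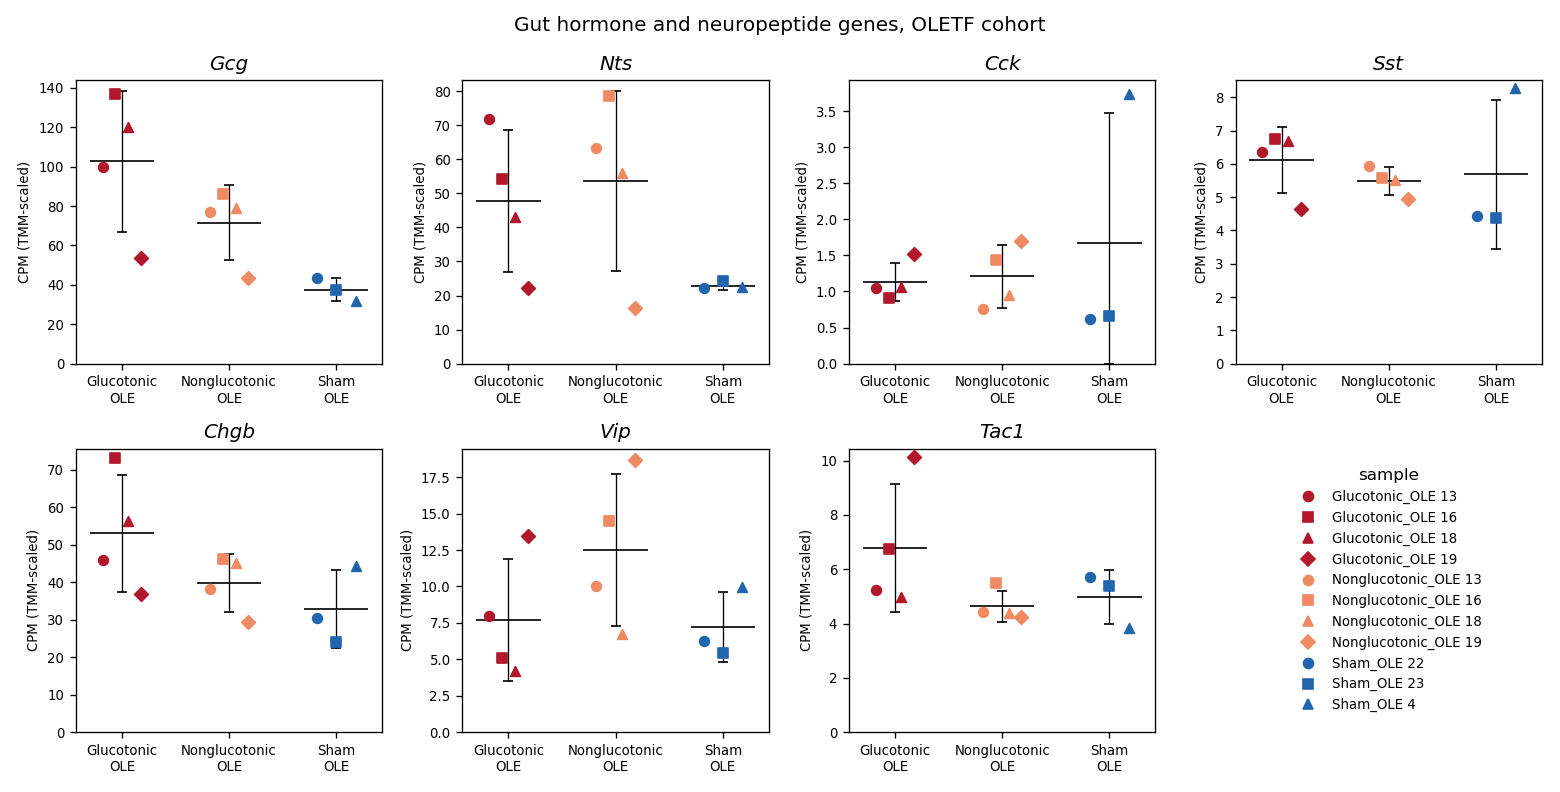
Level of each gene in CPM (vertical axis, linear, from 0) in every sample of the OLE cohort, with 1 panel a gene. Points are samples, the horizontal line is the mean and the bar is the SD over 4, 4 and 3 samples, with its lower end stopped at 0. For Gcg all RYGB points lie above the sham points, and for Cck the highest point is Sham_OLE 4 at 3.74 CPM.

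In OLETF rats, the glucotonic sections were set against sham distal intestine. Gcg was 2.74-fold higher in glucotonic sections, the largest difference of any member in this cohort, and did not pass by edgeR. In all, 0 of 7 members passed, and edgeR called 0.0345% of the 14495 IDs tested, 5 IDs. At an unadjusted p under 0.05 there were 3 members, Gcg, Chgb and Nts, all higher, against 16.4% of IDs in either direction and 7.7% higher. The median log2 change was 0.44 over the members and -0.02 over all IDs.

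Gcg had 100.1, 137, 120.1 and 53.9 CPM in Glucotonic_OLE (order 13, 16, 18, 19), against 31.8, 43.4 and 37.3 CPM in Sham_OLE (order 4, 22, 23). All 4 glucotonic samples lay above all 3 sham samples, as did 6.02% of IDs, and number 19 was the lowest of them. The log2 change was 1.45 (SE 0.32, 95% interval 0.76 to 2.15, adjusted p = 0.0977 by edgeR). DESeq2 gave 1.47 with an adjusted p of 0.00101, and called 3.61% of IDs. Without Glucotonic_OLE 19 the log2 change was 1.69 and passed by edgeR (adjusted p = 0.0475), beside 0.0553% of IDs. Over 16 alternatives the adjusted p of Gcg, by edgeR or DESeq2, lay between 0.000825 and 0.44, the highest with sequencing lane 7 as a covariate.

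All sham libraries of this cohort were from lane 7, and the RYGB libraries were from several lanes. In lane 7 alone, with a single RYGB library of each kind, Gcg was 98.6 CPM in Glucotonic_OLE 13 and 72.2 CPM in Nonglucotonic_OLE 13, against 43.9, 37.0 and 31.6 CPM in the sham libraries (22, 23, 4; scaled library by library). Nts there was 67.9 CPM in Glucotonic_OLE 13 and 65.9 CPM in Nonglucotonic_OLE 13, against 22.4, 24.0 and 22.2 CPM in the sham libraries. Chgb there was 42.5 CPM in Glucotonic_OLE 13 and 31.2 CPM in Nonglucotonic_OLE 13. Both lay within the range of the sham libraries, at 30.7, 23.8 and 44.0 CPM (22, 23, 4). With 1 library of a kind there is no test.

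Nts, the other distal hormone, had 72.0, 54.1, 43.1 and 22.1 CPM in Glucotonic_OLE, against 22.4, 22.1 and 24.2 CPM in Sham_OLE. Samples 13, 16 and 18 lay above the sham samples, and 19 was at their level. The log2 change was 1.06 (SE 0.47, edgeR adjusted p = 0.298). Chgb had 46.1, 73.2, 56.3 and 36.9 CPM in Glucotonic_OLE, against 44.4, 30.4 and 24.0 CPM in Sham_OLE, and overlapped through 19 and Sham_OLE 4. Its log2 change was 0.69 (SE 0.27, edgeR adjusted p = 0.246). With both sections of number 19 left out, Gcg, Nts and Chgb all passed by edgeR, with log2 changes of 1.66 (adjusted p = 0.00265), 1.30 (0.00821) and 0.83 (0.041), while 13% of IDs were called and 6.55% were called higher. Number 19 was lowest for these members in both kinds of section, so leaving it out raises the differences by itself. Glucotonic_OLE 19 also stood apart in makeup. IDs that reach 2% of any library held 67.3% of its counts, against 48 to 55% in the other glucotonic libraries. They held 57.6% in Nonglucotonic_OLE 19, 47.1 to 56.8% in the other non-glucotonic libraries and 51.6 to 58% in the sham libraries. With those IDs left out of the fit, the log2 change of Gcg over all samples was 1.46. The part of this makeup in the calls was not tested.

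The other members did not separate from sham. Cck had 1.04, 0.914, 1.07 and 1.51 CPM in Glucotonic_OLE, against 3.74, 0.625 and 0.665 CPM in Sham_OLE. Sham_OLE 4 lay above every RYGB section and the other sham samples below every one, and these sham values were 90 reads against 13 and 14. Sst averaged 6.11 ± 0.99 CPM in Glucotonic_OLE and 5.69 ± 2.24 CPM in Sham_OLE (SD, n = 4 and 3), with the highest value, 8.28 CPM, again in Sham_OLE 4. Vip had a log2 change of 0.09 and Tac1 of 0.44, and both overlapped the sham samples.

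The same kind of segment measure was set beside the OLE values, since Sham_OLE 4 had Cck and Sst at the high end. Here it used 388 IDs higher in first-cohort sham ileum and 1013 higher in sham jejunum, again without the members. Glucotonic sections had -1.69, -1.33, -1.54 and -1.78 and non-glucotonic sections had -1.61, -1.64, -1.52 and -2.21 (13, 16, 18, 19), against -3.18, -1.56 and -0.99 in the sham samples (4, 22, 23). Sham_OLE 4 was the most jejunum-like by this measure, and number 19 was the lowest among the RYGB sections of each kind. Its part in the differences of Gcg, Nts, Chgb and Cck was not tested. Without number 19 and Sham_OLE 4, a choice made after seeing these values, Gcg, Nts, Chgb and Sst passed for glucotonic sections by edgeR, beside 27.7% of IDs, and the log2 change of Cck turned to 0.64.

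The non-glucotonic sections were compared with the same sham samples, so both comparisons share their controls. By edgeR 0 of 7 members passed, as did 0 of 14495 IDs (0% called, with 936 at an unadjusted p under 0.05), and DESeq2 called 27 IDs (0.186%) and 0 members. At an unadjusted p under 0.05 there were 2 members, Gcg and Nts, against 6.46% of IDs. The median log2 change was 0.27 over the members and -0.02 over all IDs.

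Gcg had 76.9, 86.2, 79.3 and 43.5 CPM in Nonglucotonic_OLE (13, 16, 18, 19), against 31.8, 43.4 and 37.3 CPM in Sham_OLE. All lay above all sham samples, as did 2.7% of IDs, but number 19 did so only narrowly. The log2 change was 0.93 (SE 0.31, 95% interval 0.25 to 1.61, edgeR adjusted p = 0.682). Nts had 63.4, 78.6, 56.0 and 16.4 CPM in Nonglucotonic_OLE, with number 19 below every sham sample. Its log2 change was 1.23 (SE 0.48, edgeR adjusted p = 0.73). Without both sections of number 19, Gcg (log2 change 1.11, adjusted p = 0.0289) and Nts (1.53, 0.0246) passed by edgeR, beside 1.1% of IDs. Number 19 was lowest here for both genes, so leaving it out raises these differences by itself.

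Over both kinds of section, Gcg was above all 3 sham samples in 8 of 8 RYGB sections, as were 1.71% of IDs. Nts was so in 6 of 8 and Chgb in 5 of 8. Vip was above the sham samples in 4 of 8 sections and below them in 2, Tac1 was above in 2, and Cck and Sst were within the sham range in all 8. For counts under 8 of 8 the share over all IDs was not computed, so they only describe these members. The sections come from 4 numbers and are not 8 independent samples.

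**Figure D3:**
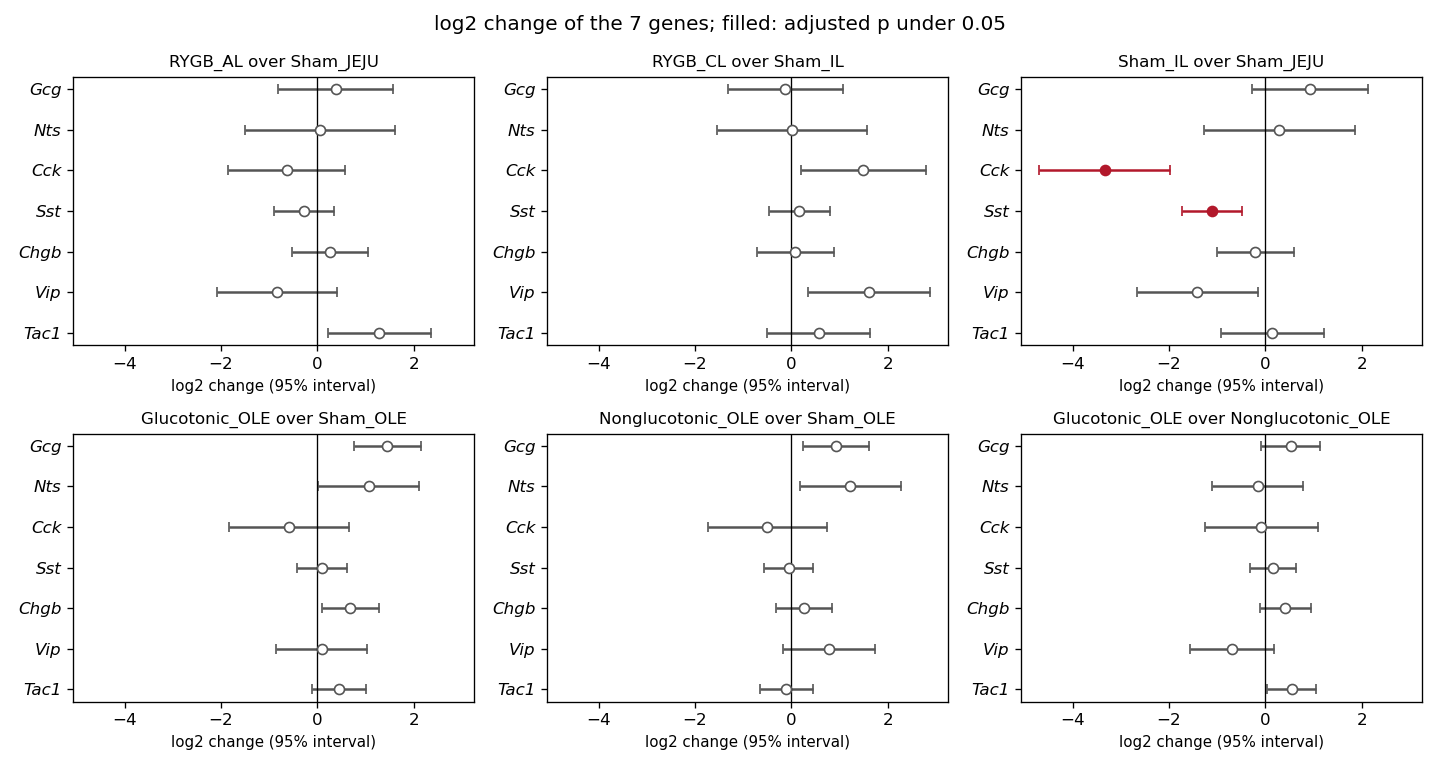
Log2 change of each gene (horizontal axis) in the comparisons shown, with the 95% interval from the edgeR fit. Cck and Sst in Sham_IL against Sham_JEJU lie below 0 and are the only ones to pass after adjustment. Several other intervals also exclude 0 without passing, among them that of Gcg in Glucotonic_OLE against Sham_OLE.

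Glucotonic and non-glucotonic sections of the same number were compared last. Without the number in the fit 0 of 7 members passed, as did 0 of 14495 IDs (0% called, with 388 or 2.68% at an unadjusted p under 0.05, among them Tac1), and DESeq2 called 3 IDs (0.0207%) and 0 members. With the number as a block 0 of 7 passed as well, and 0.179% of IDs did. Gcg was higher in the glucotonic section of all 4 numbers, by 1.24 to 1.59 times, and had a blocked log2 change of 0.49 (SE 0.09, edgeR adjusted p = 0.0639). Chgb was likewise higher in 4 of 4 numbers, by 1.20 to 1.59 times, with a blocked log2 change of 0.39 (edgeR adjusted p = 0.137). A glucotonic section higher in 4 of 4 numbers described 11.1% of IDs.

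Both neuropeptides also kept 1 direction over the numbers, but opposite ones. Tac1 had 5.23, 6.76, 4.99 and 10.1 CPM in Glucotonic_OLE, against 4.43, 5.48, 4.38 and 4.25 CPM in Nonglucotonic_OLE, higher in 4 of 4. Number 19 had the widest difference, and the blocked log2 change was 0.49 (edgeR adjusted p = 0.301). Vip had 7.97, 5.08, 4.22 and 13.5 CPM in Glucotonic_OLE, against 10.01, 14.5, 6.77 and 18.7 CPM in Nonglucotonic_OLE, lower in 4 of 4, as were 10.4% of IDs. Its blocked log2 change was -0.72 (edgeR adjusted p = 0.182). Nts and Cck were higher in the glucotonic section in 2 of 4 numbers each, and Sst in 3 of 4.

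The balance between the distal hormone Gcg and the proximal hormone Cck gives each sample 1 value that does not depend on library scaling. It is a ratio of counts, so it compares samples, not the amounts of the transcripts. In the first cohort Gcg counts per Cck count were 14.8, 38 and 13.7 in RYGB_CL, against 57.1, 56 and 95.5 in Sham_IL. All common limb samples lay below all ileum samples. Gcg alone overlapped between these groups and Cck did not, and Cck held 34 to 63 reads a library in Sham_IL. The ratios were 7, 6.2 and 7.9 in RYGB_AL, against 0.463, 9.23 and 13.1 in Sham_JEJU, with Sham_JEJU 8-15 far below the rest. In the OLE cohort they were 96, 150, 113 and 35.6 in Glucotonic_OLE and 102, 59.8, 83 and 25.6 in Nonglucotonic_OLE, against 8.5, 69.4 and 56.1 in Sham_OLE. The lowest value there was Sham_OLE 4, and the RYGB sections of number 19 lay below the other sham samples. Cck held only 13 to 90 reads a sample in the OLE cohort. The ratios of both cohorts were not tested.

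**Figure D4:**
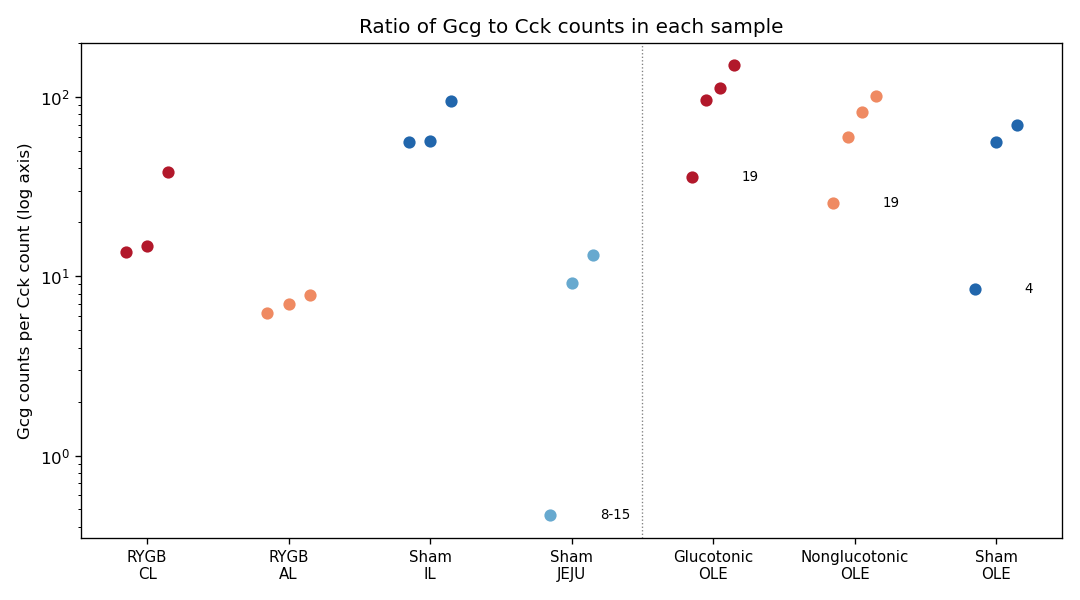
Gcg counts per Cck count in each sample (logarithmic axis), by group. The common limb samples, at 13.7 to 38, lie below the sham ileum samples, at 56 to 95.5, and Sham_JEJU 8-15 is lowest at 0.463.

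The members were also compared with each other across samples, as a description, since levels in 1 library share its depth and tissue. Gcg and Nts, hormones of the distal gut, had a Pearson r of log2 CPM of 0.805 over the 11 OLE samples. It was 0.778 without the 2 samples farthest from the median of Gcg, Sham_OLE 4 and 23. Both sections of number 19, low for both genes, stayed in. For 13, 16 and 18 Gcg was higher in the glucotonic section. For 16 and 18 Nts was lower there (5.76 and 5.43 against 6.30 and 5.81 log2 CPM), and for 13 higher (6.17 against 5.99). With the mean of each group taken out, r was 0.823, so it was not lower without the differences between groups. Number 19 was still in. The part of number 19 and of single sham samples in these r values was not tested. Over the 12 first-cohort samples r was 0.728, but -0.02 without the 2 farthest, so there it rested on those samples. Cck and Sst, the members that fell in sham ileum, had r of 0.834 over the first cohort, and 0.691 without the 2 samples farthest from the median of Cck. That fall is in the same samples, so it is part of this r. With the mean of each group taken out, r was 0.628. Over OLE samples r was 0.533, but -0.16 without the 2 farthest, so it rested on those samples. Chgb went with Tac1 in the first cohort (r = 0.788) but not in the OLE cohort (r = 0.08). With Gcg, Chgb had r of 0.797 in the OLE samples, against -0.13 in the first cohort.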

How the data were processed

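Total RNA, purified on columns, was sequenced from stranded libraries depleted of rRNA, per the labels' protocols. FastQC and STAR with rat build rn6 are named in the submitters' processing notes. The counter, its annotation and strand setting, and how reads with several hits were treated, are not stated in the sources used here, so a count can hold reads of a near copy or an overlapping gene. The deposited values are whole-number counts for 32883 gene IDs, which the authors had not normalized. No ID carries a symbol in the reference table (0 of 32883). Only the 7 members are therefore named, always, by the rule that defines them. Lists of named pathway genes and of named markers of neurons, muscle, epithelium and segments were not analysed here, and tissue labels were not checked against such markers; the segment measure uses unnamed IDs called between the sham segments. Members, lists and tests were chosen with earlier results of these data known.

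Groups came from the titles. In OLE titles the first number was taken for the animal. The 2 libraries of number 13 in each RYGB group were summed. The labels do not say that first-cohort samples came from separate animals, and a p-value measures only how far these samples spread, which may be technical. Each cohort was fitted apart with edgeR 4.0.16 in R 4.3.3. IDs were kept by filterByExpr (minimum count 10, total 15), leaving 16146 and 14495. Libraries were scaled by TMM, and quasi-likelihood tests (robust) used 1 spread over all groups of a cohort. Benjamini-Hochberg adjustment ran over all IDs, with a threshold of 0.05. Log2 CPM used a prior count of 2. Alternatives were DESeq2 1.42.0, its size factors in edgeR, no filter, IDs over 2% of a library left out, only the groups compared, samples left out, lane 7 as a covariate, number 13 kept apart and the number as a block. The scripts were tested on simulated data.

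For OLE sections of the same number, deviations from the group means correlated at 0.467 (13), 0.43 (16), 0.341 (18) and 0.811 (19). All were above 0.1, so the numbers were taken to pair the sections, although sections of different numbers reached 0.412 (13) and 0.444 (18). First-cohort numbers were not taken to pair the segments or limbs. Their correlations were 0.03 (8-15), 0.06 (14-28) and 0.09 (15-30) between the sham segments. Between the limbs they were -0.05 (1-1), 0.275 (2-3) and 0.166 (15-29), so 2-3 and 15-29 were above 0.1. If a number marks 1 animal, the fits without the block treat its samples as independent when they are not. Promoters came from RefSeq on GRCr8 for 6 of 7 members, without Cck.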

Additional observations from a re-analysis of the deposited data

Results flagged for a closer look

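Tac1 in Nonglucotonic_OLE 16 was 5.48 CPM, apart from the other samples of its group, of which the next was 4.43 CPM. The gap was 0.855 of the group's range. Of 14 groups of 4 samples examined, 1 stood out in this way, and chance gives about 1 in 20.

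Cck lay on opposite sides of sham in one comparison of each cohort, and passed in neither by edgeR (adjusted p = 0.585 and 0.63). It averaged 4.36 CPM in RYGB_CL, with every sample above the Sham_IL mean of 1.54 CPM, and 1.13 CPM in Glucotonic_OLE, with every sample below the Sham_OLE mean of 1.68 CPM. That sham mean is set by Sham_OLE 4 at 3.74 CPM, since the other sham samples had 0.625 and 0.665 CPM. Without Sham_OLE 4 the log2 change in Glucotonic_OLE was 0.79, against -0.58 with all samples. The difference between the cohorts was not tested, and levels were scaled apart. In the alimentary limb Cck had a log2 change of -0.64 and did not pass either.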

How the results depend on the processing

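Over all members, comparisons and alternatives, 732 log2 changes kept their direction and their side of the threshold, 18 newly passed, 8 no longer passed and 47 turned sign, none of which had passed in the full data; the causes were not tested. With the title number as a replicate block, 1 member was called between the sham segments (Vip, -1.40, edgeR adjusted p = 0.00927), beside 4.51% of IDs, against 2 without it, and Cck (adjusted p = 0.0612) and Sst (0.0572) no longer passed; the block changed no other call of a member. DESeq2 called 1 member for the difference between the limbs (3.52% of IDs) and 1 for Glucotonic_OLE against Sham_OLE (3.61%). Leaving out both sections of number 19 gave 3 members called in Glucotonic_OLE (13% of IDs) and 2 in Nonglucotonic_OLE (1.1%) against Sham_OLE. Number 19 was the lowest of its groups for each of these members. Leaving out Sham_OLE 4 as well, an alternative chosen after seeing the data, gave 4 (27.7%) and 3 (14.3%).

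Signs turned under these alternatives, as log2 changes. With RYGB 2-3 left out in both limbs, also chosen after seeing the data, RYGB_CL against Sham_IL was -0.44 for Chgb and -0.17 for Tac1. In Glucotonic_OLE against Nonglucotonic_OLE, Cck was 0.00079 with number 13 kept apart, 0.017 with lane 7 as a covariate, 0.038 with the block and number 13 kept apart and 0.028 with the block and number 19 left out. With lane 7 as a covariate, Nonglucotonic_OLE against Sham_OLE was 0.0089 for Sst and -0.049 for Chgb. Without number 19, Vip in Glucotonic_OLE against Sham_OLE was -0.31. Without number 19 and Sham_OLE 4, Cck was 0.64 in Glucotonic_OLE and 0.65 in Nonglucotonic_OLE, and Sst in Nonglucotonic_OLE was 0.36.

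With each sample left out in turn, 0 to 2 members were called in Sham_IL against Sham_JEJU (1.42 to 9.49% of IDs), 0 to 1 in RYGB_CL against RYGB_AL (2.43 to 13.4%) and 0 to 1 in Glucotonic_OLE against Sham_OLE (0 to 0.7%). An arm left with few samples borrowed its spread from the other groups. The log2 changes whose sign turned ranged as follows. RYGB_AL against Sham_JEJU gave -0.058 to 1.12 for Gcg, -0.48 to 0.86 for Nts, -1.06 to 0.66 for Cck and -0.47 to 0.015 for Sst. RYGB_CL against Sham_IL gave -0.68 to 0.11 for Gcg, -0.35 to 0.25 for Nts, -0.18 to 0.35 for Sst, -0.44 to 0.31 for Chgb and -0.17 to 0.95 for Tac1. Sham_IL against Sham_JEJU gave -0.24 to 1.10 for Nts, -0.42 to 0.26 for Chgb and -0.030 to 0.31 for Tac1. RYGB_CL against RYGB_AL gave -0.12 to 0.66 for Gcg. The alimentary minus common limb difference gave -0.50 to 0.85 for Nts and -0.082 to 0.71 for Chgb. Glucotonic_OLE against Sham_OLE gave -0.95 to 0.79 for Cck, -0.044 to 0.46 for Sst and -0.29 to 0.38 for Vip. Nonglucotonic_OLE against Sham_OLE gave -0.86 to 0.88 for Cck, -0.20 to 0.31 for Sst and -0.27 to 0.018 for Tac1. Glucotonic_OLE against Nonglucotonic_OLE gave -0.27 to 0.13 for Cck and -0.46 to 0.081 for Nts.

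Depth limits Cck most in the OLE cohort, where the sham samples held 13 to 90 counts.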
